A study of Homo sapiens with 20 samples.

Results

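HLA class I antigen presentation was followed through 9 genes in RNA-seq counts of U2-OS cells, a human osteosarcoma line. The genes were those rows of the count table whose symbol was HLA-B, HLA-C, HLA-E, B2M, TAP1, TAP2, TAPBP, PSMB8 or PSMB9. They are 9 of 20314 genes in the table, and all 9 were among the 14992 genes with enough counts to be tested. The study asked how NF-κB is activated soon after DNA damage, in a first phase, and again days later in senescent cells, in a second phase. It sequenced 4 groups of 5 libraries. These comprised an untreated group, a group taken 1.5 h after a dose of 20 Gy, one taken 7 days after it (both post-IR), and NFKBIA knockdown cells that were not irradiated. Knockdown was by shRNA against the transcript of IκBα, the inhibitor that holds NF-κB in the cytoplasm. All groups were grown in DMEM with fetal calf serum. According to the methods, knockdown lines were transduced with shRNA vectors and clones were selected with puromycin, and doxycycline induced the shRNA where the vector was inducible. The methods also describe doxycycline-treated control cells with scrambled shRNA, but the labels of the untreated group name neither a vector nor the drug. Whether that group is such a control is not given in the sources used here, so effects of vector, drug or clone cannot be told apart from those of the knockdown.

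Class I molecules show peptides of cytosolic proteins at the cell surface to CD8+ T cells, and their absence is sensed by natural killer cells. A heavy chain (such as HLA-B or HLA-C, or the less variable HLA-E) pairs with the light chain β2-microglobulin, encoded by B2M. Peptides are cut by the proteasome, in which the inducible subunits PSMB8 and PSMB9 can take the place of PSMB5 and PSMB6. The transporter formed by TAP1 and TAP2 moves them into the endoplasmic reticulum, and tapasin, encoded by TAPBP, holds the empty class I molecule to that transporter. All 9 genes except B2M, on chromosome 15, lie in the major histocompatibility complex on chromosome 6, and TAP2, PSMB8, TAP1 and PSMB9 are neighbours there. Interferons, through IRF1 and the transactivator NLRC5, and NF-κB are known to raise transcription of these genes.

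The promoters are shown first, because an NF-κB site or an interferon-stimulated response element (ISRE) next to the start is what the NFKBIA knockdown and the interferon genes below could bear on. Each window runs from 250 bases before to 50 bases after the annotated start, as given by RefSeq on GRCh38.p14. Windows were found for 8 of the 9 members, and HLA-E was not matched. Capitals mark matches on either strand to the κB consensus or to the ISRE core GAAANNGAA. The windows are HLA-B (chr6:31357130-31357429, minus strand), B2M (chr15:44711267-44711566, plus strand), TAP1 (chr6:32853655-32853954, minus strand), PSMB9 (chr6:32853942-32854241, plus strand) and TAPBP (chr6:33314029-33314328, minus strand).
HLA-B: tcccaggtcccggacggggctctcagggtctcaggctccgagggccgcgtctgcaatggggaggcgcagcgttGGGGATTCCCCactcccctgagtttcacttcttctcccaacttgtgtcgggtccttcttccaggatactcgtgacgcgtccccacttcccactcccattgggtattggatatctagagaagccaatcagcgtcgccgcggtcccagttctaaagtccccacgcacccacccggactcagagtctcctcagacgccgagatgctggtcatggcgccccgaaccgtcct
B2M: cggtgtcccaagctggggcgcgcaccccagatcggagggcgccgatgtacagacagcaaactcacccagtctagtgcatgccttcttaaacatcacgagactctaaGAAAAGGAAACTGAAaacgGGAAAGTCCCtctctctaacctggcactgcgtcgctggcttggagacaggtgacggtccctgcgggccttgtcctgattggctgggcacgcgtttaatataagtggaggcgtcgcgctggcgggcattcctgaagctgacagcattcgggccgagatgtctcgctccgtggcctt
TAP1: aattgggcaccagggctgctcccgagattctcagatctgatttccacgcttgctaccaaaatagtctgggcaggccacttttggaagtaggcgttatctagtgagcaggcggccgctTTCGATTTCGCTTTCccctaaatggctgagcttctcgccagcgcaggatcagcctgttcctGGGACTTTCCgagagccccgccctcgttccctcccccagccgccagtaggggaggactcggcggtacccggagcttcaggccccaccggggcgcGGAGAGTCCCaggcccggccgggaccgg
PSMB9: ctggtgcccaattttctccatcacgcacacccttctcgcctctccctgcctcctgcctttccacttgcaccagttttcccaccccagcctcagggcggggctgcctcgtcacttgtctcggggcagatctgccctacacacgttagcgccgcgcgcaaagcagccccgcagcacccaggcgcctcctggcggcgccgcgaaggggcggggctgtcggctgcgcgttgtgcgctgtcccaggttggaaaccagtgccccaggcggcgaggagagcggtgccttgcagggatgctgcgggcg
TAPBP: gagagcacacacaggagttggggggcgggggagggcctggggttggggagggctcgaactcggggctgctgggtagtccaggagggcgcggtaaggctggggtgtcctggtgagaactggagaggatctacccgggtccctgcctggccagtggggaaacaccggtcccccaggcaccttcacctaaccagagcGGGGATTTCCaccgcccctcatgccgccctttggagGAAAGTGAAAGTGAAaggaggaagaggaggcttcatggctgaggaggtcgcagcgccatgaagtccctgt

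In HLA-B the capitals are overlapping κB matches between 177 and 167 bases before the start. HLA-C, whose window is not printed, has 1 such match between 172 and 163 bases before the start. B2M has overlapping ISRE cores between 144 and 130 bases before its start and a κB match between 125 and 116 bases before it. TAP1 has ISRE cores between 133 and 119 bases and a κB match between 72 and 63 bases before the start, with another κB match from 22 bases after it. TAPBP has a κB match between 56 and 47 bases and ISRE cores between 20 and 6 bases before the start. The window of PSMB9 holds neither. TAP1 and PSMB9 are read away from each other, with 488 bases between these starts, so the capitals before the start of TAP1 also lie upstream of PSMB9. TAP2 has an ISRE core between 58 and 50 bases before its start, and PSMB8 has 1 across the start site in 1 of its 2 windows. The other window of TAP1 (chr6:32852712-32853011, minus strand) holds neither. Of the 10 windows of these 8 members, 5 held a κB match and 5 an ISRE core, against 11.3% and 8.11% of all 35116 promoter windows. A match in the reference is a description of its letters, not a bound site, and the alleles of U2-OS may differ from it.

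Reads counted on genes ranged from 22535659 to 40390961 per library, and the 9 genes held between 203 counts (PSMB9) and 31637 counts (B2M) in a library. Levels are given in CPM, counts relative to library size after TMM scaling in edgeR, and differences as log2 fold change, first group minus second, with its standard error (SE). Calls needed an adjusted p under 0.05 together with a log2 fold change beyond 0.5 in either direction, by edgeR's quasi-likelihood test over all genes. NFKBIA itself was at 11.2 to 13.0 CPM in the knockdown and at 23.5 to 42.0 CPM in untreated libraries (log2 fold change -1.36, adjusted p = 4.87e-09). It was at 76.3 to 88.3 CPM at 1.5 h and at 28.4 to 32.4 CPM at 7 days. Of 8 osteoblast lineage markers, RUNX2, COL1A1, SPARC, ALPL, SPP1 and BGLAP were detected in every group, whereas COL1A2 averaged at most 0.411 CPM and IBSP was at or near 0. Against untreated cells 1 of the 7 tested was called lower at 1.5 h (RUNX2, at -0.56, and not called at -0.26 without untreated replicate 5), 2 were called higher (ALPL and SPP1) and 1 lower (SPARC) at 7 days, and 2 were called lower in the knockdown (COL1A1 and ALPL). COL1A1 averaged 1974 ± 247 CPM (SD, n = 5) in untreated cells and 617 ± 35.8 CPM in the knockdown, and SPP1 had a log2 fold change of 2.64 (adjusted p = 3.55e-14) at 7 days. The part of these differences in the class I values was not tested. Untreated replicate 5, the library with the lowest total, stood apart from the other untreated libraries. Its log2 deviations from their mean had an SD of 0.56 over all genes, and 8 of the 9 members were at 59.8% to 83.7% of that mean, while TAPBP was at 143%. Sequencing lanes and groups overlapped little: untreated replicate 5 shared lane 3 with libraries at 1.5 h, lane 4 held both post-IR groups, and lane 5 held 7 days libraries and 1 knockdown library. Values without that library are given for each of the 9 genes, and those within lanes after the results by gene.

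In the second phase, mRNA of the heavy chains HLA-B and HLA-E, the light chain and TAP1 was upregulated. At 7 days post-IR, 4 of the 9 genes were called higher than in untreated cells (HLA-B, HLA-E, B2M and TAP1) and 0 lower, where 16.7% of all genes tested were called higher and 14.4% lower. The median log2 fold change of the 9 was 0.46, beside 0.01 over all genes tested. In NFKBIA knockdown cells 1 of the 9, PSMB9, was called higher and 0 lower, where 5.18% of all genes were called higher and 7.53% lower. Their median was 0.30, beside -0.01 over all genes. At 1.5 h, 0 of the 9 were called in either direction by edgeR (0 also by DESeq2), where 2.08% of all genes were called higher and 1.57% lower. The values furthest from 0 were mixed in direction: TAPBP at -0.24, PSMB9 at -0.20 and TAP1 at 0.20. Without untreated replicate 5, the medians of the 9 were 0.35 at 7 days, 0.20 in the knockdown and -0.13 at 1.5 h. These comparisons share the untreated libraries, so they are set side by side here and not correlated.

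**Figure D1:**
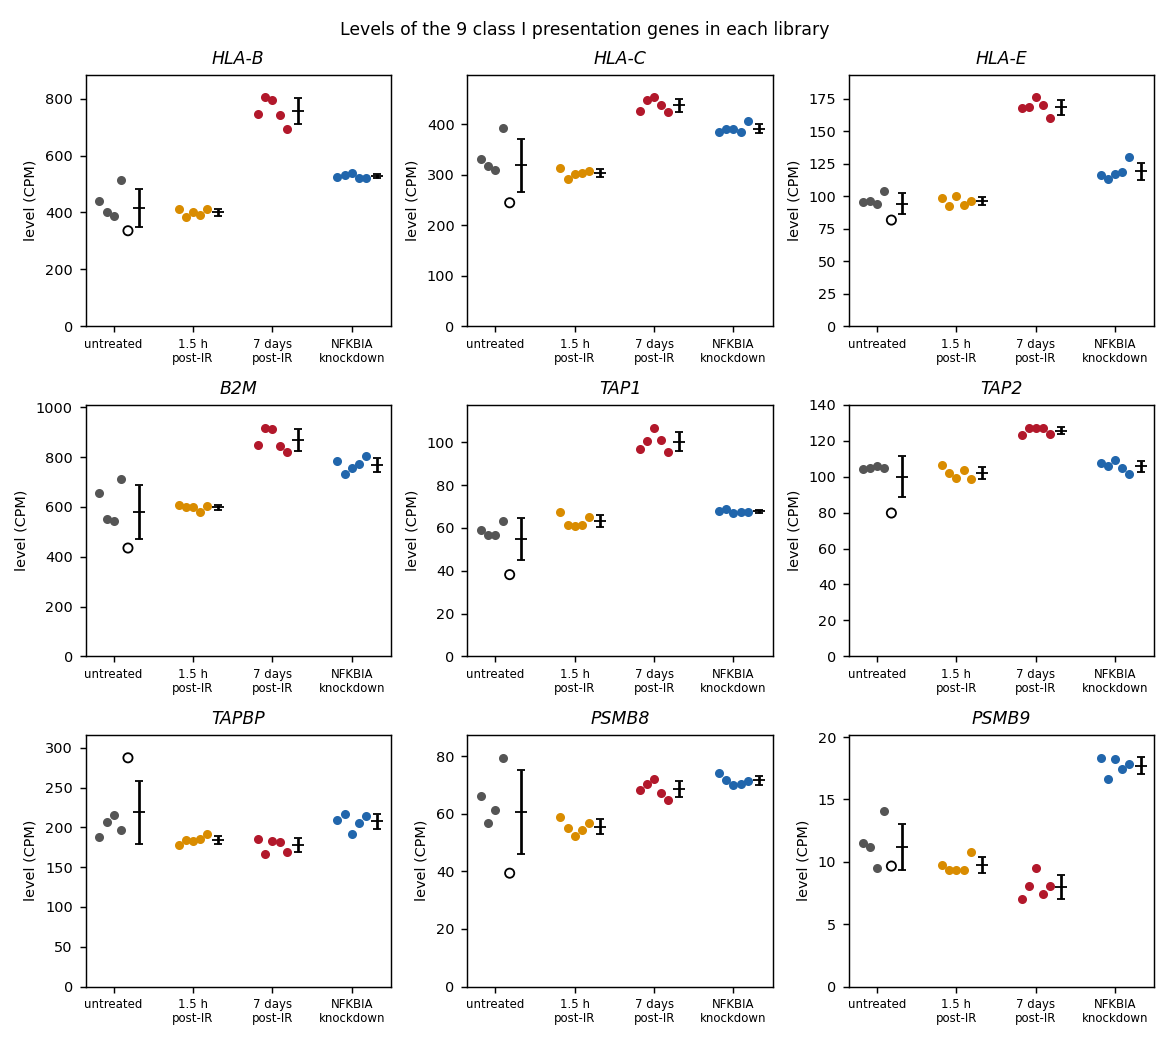
Level of each of the 9 genes in CPM (y axis, from 0) in the 5 libraries of each group (points), with the group mean and SD (bars); the open point is untreated replicate 5. In HLA-B, HLA-C, HLA-E, B2M, TAP1 and TAP2 the 7 days points lie above all others, and in PSMB9 the knockdown points do.

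HLA-B, a classical heavy chain, was at 439, 402, 388, 515 and 336 CPM in untreated replicates 1 to 5 and at 413, 383, 403, 391 and 412 CPM at 1.5 h. It was at 747, 805, 796, 743 and 695 CPM at 7 days and at 524, 533, 538, 522 and 522 CPM in the knockdown. In bulk RNA, a change in all cells and a change in a share of them cannot be told apart. Every 7 days library lay above every other library, and every knockdown library above every untreated library, of which replicate 4 was the highest. At 7 days the difference from the untreated group in log2 fold change came to 0.86 (SE 0.08, adjusted p = 3.55e-09), a fold of 1.82. In the knockdown it was 0.34 (SE 0.08, adjusted p = 0.00120), short of the threshold on the fold change, and at 1.5 h it was -0.06 (adjusted p = 0.663). Without untreated replicate 5 these 3 values were 0.78, 0.26 and -0.13. The exact permutation test gave p = 0.00794 for 7 days and for the knockdown, the smallest two-sided p that 5 libraries against 5 allow.

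HLA-E, which presents signal peptides of other class I chains to the natural killer receptor CD94/NKG2A, had the narrowest spread of the heavy chains among untreated libraries. It was at 95.6, 96.2, 94.2, 104 and 81.6 CPM in untreated libraries and at 98.8, 92.6, 99.9, 93.0 and 96.2 CPM at 1.5 h. At 7 days it was at 168, 169, 176, 170.3 and 159.7 CPM, and in the knockdown at 116, 113, 117, 118 and 130.4 CPM. The 7 days libraries lay above all others and the knockdown libraries between them and both remaining groups, which overlapped. Against untreated cells the log2 fold change was 0.84 (SE 0.06, adjusted p = 3.02e-11) at 7 days, 0.33 (adjusted p = 5.66e-05) in the knockdown and 0.03 (adjusted p = 0.784) at 1.5 h. Leaving out untreated replicate 5 gave 0.77, 0.27 and -0.03.

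HLA-C, the other classical heavy chain among the members, differed less. It averaged 319 ± 53.0 CPM (SD, n = 5) in untreated cells, 303 ± 8.61 at 1.5 h, 438 ± 13.2 at 7 days and 391 ± 8.65 in the knockdown. The 7 days libraries lay above all other libraries, whereas those of the knockdown overlapped with untreated replicate 4. The log2 fold change against untreated cells was 0.46 (adjusted p = 2.71e-05) at 7 days and 0.30 (adjusted p = 0.00421) in the knockdown, both short of the threshold on the fold change. At 1.5 h it was -0.07 (adjusted p = 0.557). Leaving out untreated replicate 5 gave 0.35 at 7 days, 0.20 in the knockdown and -0.16 (adjusted p = 0.0251) at 1.5 h. The 7 days value passed that threshold with library sizes alone in place of TMM factors (0.50) and without untreated replicate 4 (0.52), so that HLA-C was then called as well. The reads of HLA genes could be split between near copies, so 100-base windows of their annotated transcripts were compared with all other transcripts of GENCODE 29. Of these windows 0% of HLA-B, 0.23% of HLA-C and 0.6% of HLA-E occurred in another gene. Only identical windows were counted and the alleles of U2-OS may differ from the reference, so this does not cover reads placed with mismatches. With the counts of 6 class I heavy chain genes summed, the log2 fold change was 0.67 at 7 days and 0.38 in the knockdown. The medians of HLA-B, HLA-C and HLA-E there were 0.84 and 0.33.

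B2M, the shared light chain and the most abundant of the 9 per kilobase, was at 655, 553, 542, 714 and 435 CPM in untreated libraries and 607, 598, 601, 578 and 605 CPM at 1.5 h. It was at 849.8, 919, 912, 846 and 819 CPM at 7 days and at 785, 732, 755, 771 and 803 CPM in the knockdown. The untreated libraries spread most, with replicate 5 lowest and replicate 4 highest, and every 7 days and every knockdown library lay above them. Every 7 days library also lay above every 1.5 h and every knockdown library. The log2 fold change was 0.58 (SE 0.09, adjusted p = 5.77e-06) at 7 days and 0.41 (adjusted p = 8.08e-04) in the knockdown. Without untreated replicate 5 the 7 days value was 0.48 (adjusted p = 9.43e-07) and the knockdown value was 0.30. Then 3 of the 9 genes were called higher at 7 days and 1 lower (PSMB9), where 2470 and 2138 of 15082 genes tested were. The difference between 7 days and knockdown was 0.18 (adjusted p = 0.0876) for B2M and 0.16 (adjusted p = 0.0789) for HLA-C. It was 0.52 (adjusted p = 6.12e-06) for HLA-B and 0.50 (adjusted p = 9.93e-08) for HLA-E, both higher at 7 days. With the counts of the 6 heavy chain genes summed, the same difference was 0.29 (adjusted p = 0.00340). The ratio of HLA-B to B2M counts within a library, which does not depend on the scaling of libraries, was 0.879, 0.876, 0.872, 0.877 and 0.848 at 7 days. In untreated libraries it was 0.670, 0.727, 0.715, 0.721 and 0.771. All 7 days ratios lay above all untreated ratios, and the log2 ratio differed by 0.27 (exact permutation test, two-sided, p = 0.00794, adjusted p = 0.0149). The knockdown differed from untreated cells in this ratio by -0.07 (exact permutation test, two-sided, p = 0.167, adjusted p = 0.217). Leaving out untreated replicate 5, these differences were 0.30 and -0.04.

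**Figure D2:**
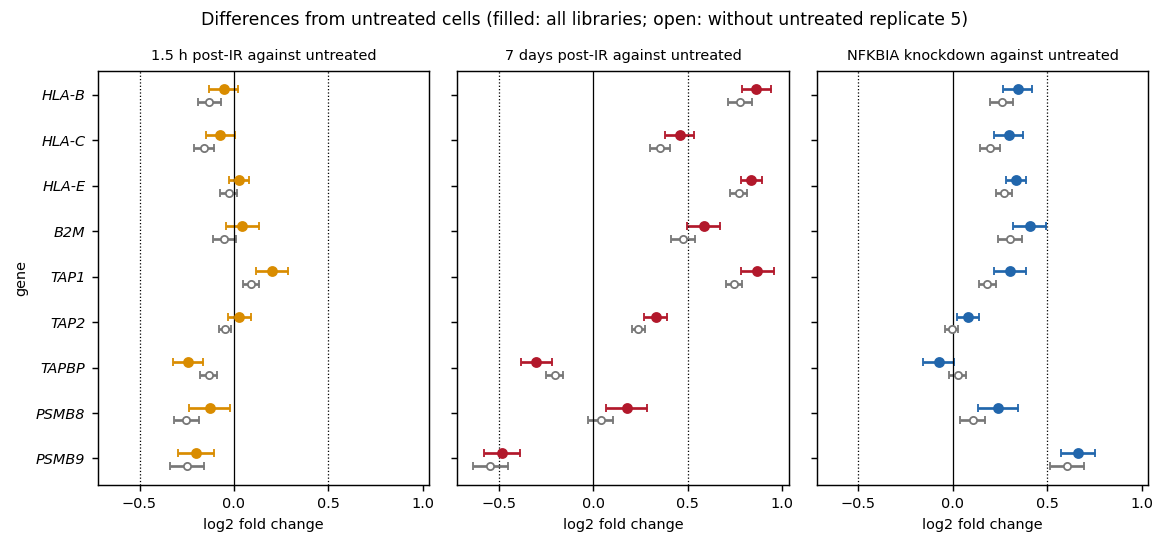
Log2 fold change of each gene against untreated cells (x axis) with its standard error (bars), in 3 panels for 1.5 h, 7 days and NFKBIA knockdown; filled points use all libraries, open grey points leave out untreated replicate 5, and dotted lines mark 0.5 in either direction. Leaving that library out lowered the 7 days value of B2M from 0.58 to 0.48 and moved that of PSMB9 from -0.49 to -0.55.

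Of the peptide transporter, TAP1 was upregulated in the second phase and TAP2 differed less. TAP1 was at 59.0, 56.8, 56.7, 63.3 and 38.1 CPM in untreated libraries, 67.2, 61.1, 60.9, 61.2 and 64.9 CPM at 1.5 h, 96.8, 101, 107, 101 and 95.6 CPM at 7 days and 68.0, 69.0, 66.9, 67.4 and 67.2 CPM in the knockdown. Untreated replicate 5 was the lowest of all 20 libraries, and the 7 days libraries lay above all others. The log2 fold change was 0.87 (SE 0.09, adjusted p = 1.71e-08) at 7 days, 0.30 (adjusted p = 0.00754) in the knockdown and 0.20 (adjusted p = 0.103) at 1.5 h. Without untreated replicate 5 these were 0.75, 0.18 and 0.09. TAP2 was at 104, 105, 106, 105 and 79.8 CPM in untreated libraries and at 123, 127, 127, 127 and 124 CPM at 7 days. These 7 days libraries lay above those of every other group. On the log2 scale it differed by 0.33 (SE 0.06, adjusted p = 5.96e-05) at 7 days, short of the threshold on the fold change, and 0.08 (adjusted p = 0.298) in the knockdown. Leaving out untreated replicate 5 gave 0.24 and -0.01. TAP2 shares 2064 exonic bases on the same strand with AL669918.1 (ENSG00000250264), and 31.9% of its 100-base windows also lie in that gene's transcripts. The row of AL669918.1 had a log2 fold change of 0.33 (adjusted p = 3.61e-04) at 7 days, so the split of reads between them is uncertain.

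The counts of TAP1 relative to TAP2 within a library were 0.566, 0.542, 0.535, 0.603 and 0.478 in untreated cells and 0.787, 0.791, 0.839, 0.796 and 0.773 at 7 days. In the knockdown the ratio was 0.633, 0.650, 0.614, 0.644 and 0.663. All 7 days ratios were above those of every other group, and all knockdown ratios above the untreated ones. The log2 ratio differed from untreated cells by 0.55 (exact permutation test, two-sided, p = 0.00794, adjusted p = 0.0149) at 7 days and by 0.24 (exact permutation test, two-sided, p = 0.00794, adjusted p = 0.0149) in the knockdown. At 1.5 h the difference was 0.19 (exact permutation test, two-sided, p = 0.0238, adjusted p = 0.0397). Leaving out untreated replicate 5, they were 0.51, 0.19 and 0.14. The p values of 30 such ratio tests, 5 ratios in 6 comparisons, were adjusted together.

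TAPBP, whose window also holds κB and ISRE letters, had its highest mean in untreated cells. Tapasin mRNA was at 188, 207, 215, 196 and 287 CPM in untreated libraries and 178, 184, 183, 185 and 192 CPM at 1.5 h. It was at 186, 167, 183, 182 and 169 CPM at 7 days and at 209.8, 217, 192, 205 and 214 CPM in the knockdown. Untreated replicate 5 was far above the other untreated libraries, yet all 7 days libraries lay below all 5. The log2 fold change was -0.30 (SE 0.08, adjusted p = 0.00289) at 7 days, -0.24 (adjusted p = 0.0373) at 1.5 h and -0.07 (adjusted p = 0.489) in the knockdown, none past the threshold on the fold change. Without untreated replicate 5 these were -0.21, -0.13 and 0.03.

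PSMB9, the inducible subunit whose gene lies head to head with TAP1, separated the knockdown from the second phase. It was at 11.5, 11.2, 9.48, 14.1 and 9.66 CPM in untreated libraries and 9.76, 9.34, 9.37, 9.37 and 10.8 CPM at 1.5 h. At 7 days it was at 6.99, 8.05, 9.49, 7.40 and 8.02 CPM, and in the knockdown at 18.3, 16.6, 18.2, 17.4 and 17.9 CPM. The knockdown libraries lay above all others, while those at 7 days were low, with replicate 3 level with untreated replicate 3 and within the range at 1.5 h. In log2 fold change PSMB9 rose in the knockdown by 0.66 (SE 0.09, adjusted p = 7.82e-06), a fold of 1.58, and without untreated replicate 5 by 0.60. At 7 days the value was -0.49 (SE 0.10, adjusted p = 1.56e-04), just inside the threshold on the fold change, and -0.55 (adjusted p = 2.58e-05) without untreated replicate 5. The difference between 7 days and knockdown was -1.15 (SE 0.09, adjusted p = 1.25e-09). For TAP1 the same difference was 0.57 (adjusted p = 8.12e-06), in the opposite direction. PSMB9 shares 174 exonic bases on its own strand with PSMB8-AS1 and 139 on the other strand with PSMB8. It is the lowest of the 9 per kilobase.

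PSMB8, the other inducible subunit among the members, overlapped between untreated cells and every other group. It was at 66.0, 56.7, 61.1, 79.4 and 39.3 CPM in untreated libraries, where the coefficient of variation of 24.1% was the highest of any member in any group. It was at 68.3, 70.3, 71.9, 67.1 and 64.6 CPM at 7 days and at 74.1, 71.7, 70.1, 70.3 and 71.4 CPM in the knockdown. The log2 fold change was 0.18 (adjusted p = 0.161) at 7 days, 0.24 (adjusted p = 0.0834) in the knockdown and -0.13 (adjusted p = 0.443) at 1.5 h. Without untreated replicate 5, the lowest library, it was 0.04 at 7 days, 0.10 in the knockdown and -0.25 (adjusted p = 0.00643) at 1.5 h. PSMB8 shares 618 exonic bases with PSMB8-AS1 on the other strand.

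Set against the constitutive subunits within each library, the inducible proteasome genes were compared in pairs. PSMB9 counts per PSMB6 count were 0.0956, 0.115, 0.0898, 0.0948 and 0.0731 in untreated libraries, 0.0765, 0.0878, 0.108, 0.0809 and 0.0854 at 7 days and 0.166, 0.151, 0.174, 0.180 and 0.176 in the knockdown. The knockdown ratios lay above all others, with a difference in log2 ratio from untreated cells of 0.87 (exact permutation test, two-sided, p = 0.00794, adjusted p = 0.0149). At 7 days it was -0.09 (exact permutation test, two-sided, p = 0.508, adjusted p = 0.525), where PSMB6 itself was at a log2 fold change of -0.40 (adjusted p = 2.78e-04). Leaving out untreated replicate 5, the difference was 0.78 in the knockdown and -0.18 at 7 days. PSMB8 relative to PSMB5 differed from untreated cells by 0.19 (exact permutation test, two-sided, p = 0.00794, adjusted p = 0.0149) in the knockdown and by 0.15 (exact permutation test, two-sided, p = 0.0159, adjusted p = 0.0280) at 7 days. PSMB10, the third inducible subunit, relative to PSMB7 differed by 0.24 (exact permutation test, two-sided, p = 0.00794, adjusted p = 0.0149) at 7 days and by -0.07 (exact permutation test, two-sided, p = 0.413, adjusted p = 0.459) in the knockdown. Without that library the differences of PSMB8 to PSMB5 were 0.21 in the knockdown and 0.18 at 7 days, and those of PSMB10 to PSMB7 0.21 at 7 days and -0.10 in the knockdown.

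**Figure D3:**
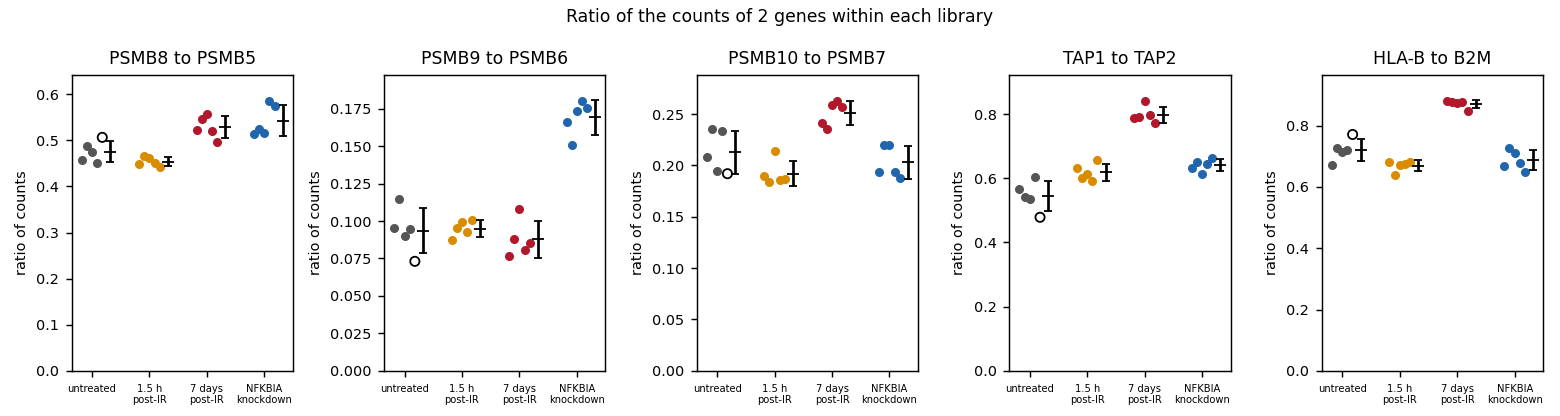
Ratio of the counts of 2 genes (y axis, linear, from 0) in each library, for 3 pairs of inducible and constitutive proteasome subunits, the 2 transporter subunits, and HLA-B with B2M; points are libraries, bars are the group mean and SD, and the open point is untreated replicate 5. PSMB9 to PSMB6 is highest in the knockdown, and TAP1 to TAP2 and HLA-B to B2M are highest at 7 days.

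Between the post-IR time points, 5 of the 9 genes were called higher at 7 days than at 1.5 h (HLA-B, HLA-C, HLA-E, B2M and TAP1) and 0 lower, where 16.8% of all genes were called higher and 12.6% lower. The values ran from 0.53 (HLA-C) to 0.92 (HLA-B). This comparison sets no untreated library against another group, and within lane 4, with 2 libraries of each time point, the same count of 5 was called higher, beside 15.7% of all genes. There HLA-B was at 0.95 (adjusted p = 4.10e-07), HLA-E at 0.83 (adjusted p = 2.80e-08), TAP1 at 0.65 (adjusted p = 4.03e-07) and B2M at 0.58 (adjusted p = 1.21e-04). Without 7 days replicate 2 or 3 the count was 3, as HLA-C and B2M then lay just inside the threshold on the fold change.

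Against the knockdown, 3 genes were called higher at 7 days (HLA-B, HLA-E and TAP1) and 1 lower (PSMB9), where 15.8% of all genes were called higher and 9.89% lower. HLA-E, at a log2 fold change of 0.50, lay at the threshold, and its call was lost in 13 of 21 alternatives, with values down to 0.47. HLA-B, at 0.52, lost its call in 3 of 21, without 7 days replicate 2, 7 days replicate 3 or knockdown replicate 4, where 1 gene, TAP1, was called higher. TAP1 and PSMB9 kept their calls in all 21, which are not separate checks. Lane as a factor and within lane 5 gave the same values, and dropping the threshold on the fold change cannot end a call. Within lane 5, which holds 3 libraries at 7 days and a single one of the knockdown, the differences were 0.51 for HLA-B, 0.54 for HLA-E, 0.57 for TAP1 and -1.14 for PSMB9, given without a test because the knockdown has no spread there. The knockdown against 1.5 h gave 1 gene called higher, PSMB9 at 0.86 (adjusted p = 2.01e-07), and 0 lower, where 6.54% of all genes were called higher and 7.60% lower.

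Lane could be separated from treatment at 1.5 h only within lane 3, where a single untreated library, replicate 5, stands against 3 libraries at 1.5 h. Differences there are given without a test. They were 0.73 for TAP1, -0.66 for TAPBP, 0.47 for B2M, 0.49 for PSMB8, 0.30 for HLA-C, 0.36 for TAP2, 0.25 for HLA-B, 0.25 for HLA-E and -0.03 for PSMB9. For HLA-B, HLA-C, HLA-E, B2M, TAP2 and PSMB8 the sign was opposite to that without untreated replicate 5, and for TAP1, TAPBP and PSMB9 it was the same. With lane as a factor over all groups, every difference from untreated cells rests on the same library. The 7 days differences were then 1.20 for HLA-B, 1.08 for HLA-E, 1.05 for B2M, 1.37 for TAP1, 0.82 for HLA-C, 0.67 for TAP2, 0.81 for PSMB8, -0.76 for TAPBP and -0.45 for PSMB9. In the knockdown PSMB9 was at 0.69 (adjusted p = 0.0693), so the call of the single gene called there ended, and the other 8 ran from -0.52 (TAPBP) to 0.94 (PSMB8).

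Per kilobase of the gene length in the table, the order in untreated cells was B2M at 184 ± 34.3 CPM per kb (SD, n = 5), HLA-B at 138 ± 22.1, HLA-C at 127 ± 21.1, TAPBP at 43.2 ± 7.86, HLA-E at 31.7 ± 2.71, PSMB8 at 30.2 ± 7.26, TAP2 at 15.7 ± 1.77, TAP1 at 11.6 ± 2.04 and PSMB9 at 3.64 ± 0.601. HLA-B and HLA-C, and HLA-E and PSMB8, are neighbours closer than their spread. At 7 days TAP1 reached 21.1 ± 0.929 CPM per kb, beside 19.7 ± 0.331 for TAP2, and HLA-B reached 251 ± 14.8. PSMB9 stood at 2.60 ± 0.309 at 7 days and at 5.76 ± 0.224 in the knockdown.

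Within a gene, the mean levels of HLA-B, HLA-C, HLA-E, B2M, TAP1 and TAP2 were highest at 7 days and next highest in the knockdown. Neighbours in that order that did not pass an adjusted p of 0.05 were 7 days and knockdown for HLA-C and B2M, knockdown and 1.5 h for TAP1 (adjusted p = 0.358) and TAP2 (adjusted p = 0.519), and 1.5 h and untreated for all 6. For TAPBP the order ran from untreated to 7 days, and no pair of neighbours passed. For PSMB8 and PSMB9 the knockdown came first, and only for PSMB9 did it differ from its neighbour.

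Across the 20 libraries, HLA-B and HLA-E (Pearson's r = 0.979), HLA-C and B2M (r = 0.974) and TAP1 and TAP2 (r = 0.957) were the closest pairs of their kinds in log2 CPM. TAP1 and PSMB9 had r = -0.328 and TAP1 and TAPBP r = -0.723. The points share group, lane and untreated replicate 5, so these are descriptions of the 4 groups more than of 20 separate measurements. Among the genes outside the class I set whose pattern was most like the mean of the 9 were SLC39A1 (r = 0.975), TMED3 (r = 0.975), MVP (r = 0.973) and APOL1 (r = 0.973). That mean does not follow every member: it had r = -0.421 with TAPBP and 0.137 with PSMB9, and 0.820 (TAP2) to 0.993 (HLA-C) with the others. APOL1, an interferon-inducible apolipoprotein, averaged 53.0 CPM in untreated cells, 98.5 at 7 days and 92.7 in the knockdown.

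Other genes of the pathway were read from lists. Of other heavy chains, the nonclassical MR1, which presents microbial metabolites to mucosal-associated T cells, averaged 11.2 ± 1.05 CPM in untreated cells and 30.1 ± 1.12 CPM at 7 days. Its log2 fold change was 1.43 (adjusted p = 6.80e-14) at 7 days and 0.22 (adjusted p = 0.0115) in the knockdown. HLA-F was at 0.54 (adjusted p = 5.26e-04) in the knockdown, and at 0.41 without untreated replicate 5, where it was no longer called. At 7 days it was at 0.43 (adjusted p = 0.00172), short of the threshold on the fold change.

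Of 7 peptide loading and trimming genes, 2 were called higher at 7 days: the chaperone CANX (0.50, adjusted p = 8.79e-09) and the trimming peptidase ERAP2 (0.64, adjusted p = 5.86e-08). CANX was at 0.49 and no longer called without untreated replicate 5, and the median of the 7 at 7 days was then 0.32. In the knockdown and at 1.5 h, 0 of these 7 were called. The median was 0.48 at 7 days and 0.27 in the knockdown, and ERAP1, the related peptidase, was at 0.38 (adjusted p = 1.27e-04) in the knockdown and 0.01 (adjusted p = 0.856) at 7 days. Of 8 proteasome partners, 0 were called in any comparison with untreated cells, and their median was 0.01 at 7 days and -0.07 in the knockdown (-0.04 and -0.12 without that library). This list holds the constitutive subunits above, and PSMB10 was at 0.27 (adjusted p = 0.0250) at 7 days.

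Among 10 genes that act on class I transcription, 9 were tested and 1 was called in any comparison with untreated cells. IRF1, the interferon-responsive factor, rose at 1.5 h from 31.1 ± 1.25 to 75.4 ± 3.64 CPM, by 1.28 (SE 0.05, adjusted p = 3.15e-14). At 7 days IRF1 was at 33.6 ± 1.79 CPM and in the knockdown at 29.1 ± 0.734 CPM. NLRC5, the class I transactivator, averaged 18.2 ± 1.95, 18.3 ± 0.857, 19.5 ± 0.896 and 19.0 ± 1.11 CPM in untreated, 1.5 h, 7 days and knockdown libraries, and these overlapped. At 1.5 h the 9 members had a median log2 fold change of -0.06. Any part of IRF1 in the class I values was not tested. Of 12 interferon ligands, receptors and kinases, 9 were tested. IFNB1 and IFNL1 had 0 counts in every library. STAT2, which carries type I interferon signals, rose at 7 days by 0.64 (adjusted p = 1.27e-07) and was at 0.18 (adjusted p = 0.0491) in the knockdown. The medians of the 9 tested were 0.02 at 1.5 h, 0.17 at 7 days and 0.03 in the knockdown, and 0.05, 0.09 and 0.04 without untreated replicate 5.

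Class II molecules present peptides from outside the cell. HLA-DRA and its invariant chain CD74 averaged at most 0.161 and 0.144 CPM in a group. Of 5 class II genes tested, CTSS, which degrades the invariant chain, was called higher at 7 days (1.26, adjusted p = 1.84e-06) and HLA-DPB1 lower (-0.70, adjusted p = 1.31e-06). HLA-DRB1 was not analysed here. Ligands of the activating natural killer receptor NKG2D were called higher in 2 of 7 tested at 7 days, ULBP2 (0.57, adjusted p = 6.56e-06) and RAET1E (1.69, adjusted p = 6.39e-12). In the knockdown RAET1E was called (1.39, adjusted p = 1.40e-09), and at 1.5 h RAET1L (1.51, adjusted p = 0.00269), which averaged at most 0.642 CPM. These calls held without untreated replicate 5, and ULBP2 was then also called at 1.5 h (0.53).

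**Figure D4:**
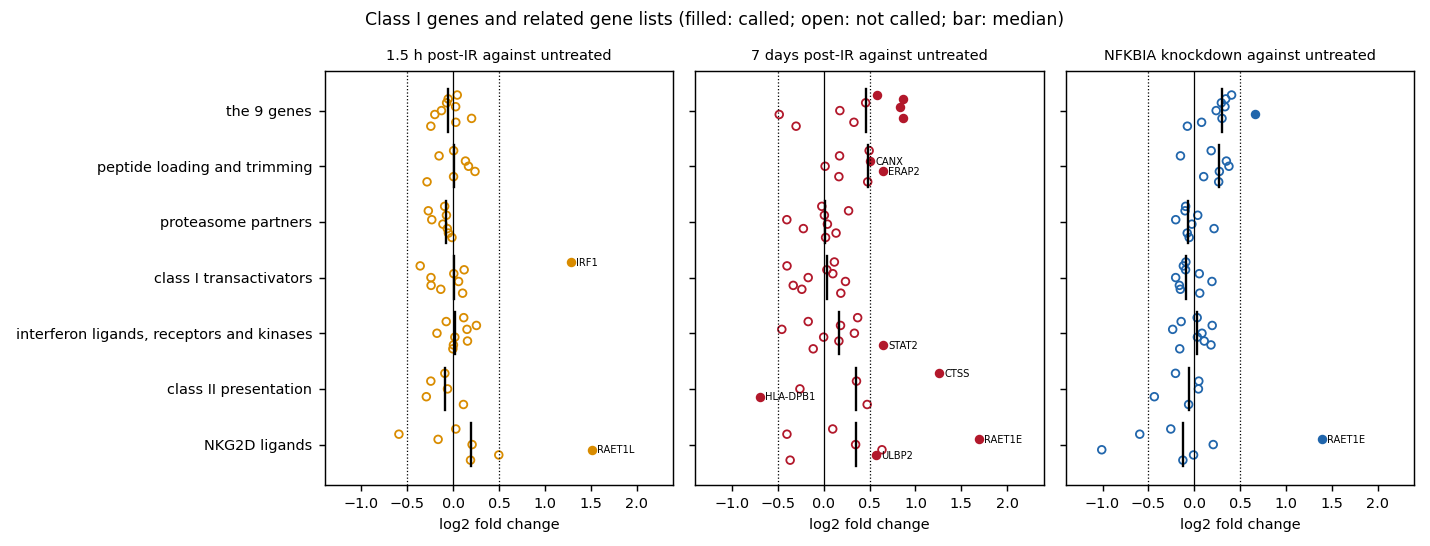
Log2 fold change against untreated cells (x axis) of the 9 genes and of each tested gene of 6 related lists (rows), in 3 panels for 1.5 h, 7 days and NFKBIA knockdown; filled points were called, open points were not, and the black bar is the list median. At 1.5 h IRF1 and RAET1L are the filled points, and the 9 genes lie around 0.

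Leukocytes carry much class I mRNA, so their markers were read beside these results. Of 8 leukocyte markers 4 were tested, and at 7 days 2 were called higher (CD68 and ITGAM) and 1 lower (CD79A). CD68, a lysosomal glycoprotein, averaged 2.69 ± 2.03 CPM in untreated cells and 23.2 ± 1.67 CPM at 7 days. ITGAM averaged 2.17 ± 0.550 and 5.95 ± 0.245 CPM. The summed level of the 8 was 4.62 to 12.3 CPM in untreated libraries, 28.8 to 34.1 at 7 days and 4.18 to 5.20 in the knockdown. The highest untreated sum was that of replicate 5, and the other untreated libraries reached at most 6.18 CPM. CD68 was at 6.28 CPM in replicate 5 and averaged 1.80 CPM in the other untreated libraries, whereas CD14 was at 0 in replicate 5. Without that library, 4 of 5 tested were called higher at 7 days (CD68, ITGAM, PTPRC and CD14) and CD79A lower. In the knockdown PTPRC (-1.52) and ITGAM (-0.76) were called lower, as they were without untreated replicate 5 (-1.38 and -0.66). CD14 averaged 0.0970 ± 0.0731 CPM in untreated cells and 0.386 ± 0.108 CPM at 7 days, and PTPRC 1.05 ± 0.331 and 1.34 ± 0.233 CPM. CD3E, LYZ and AIF1 averaged at most 0.114 CPM in any group, and the untreated signal of CD3E was all in replicate 5. The part of any such cells in the class I values was not tested.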

How the data were processed

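The deposited counts were whole numbers of reads per gene for 20 libraries, 5 in each of 4 groups. Per the methods, the authors made stranded mRNA libraries and sequenced single reads of 100 bases. The submitters' processing notes name bcl2fastq, Trimmomatic, STAR 2.4.2a and hg19. The counting tool and its strand setting are not given in the sources used here.

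Groups came from the sample labels. The study describes the libraries of a group as biological replicates, without saying how their cultures were kept apart, and p-values measure the spread between them. The 9 members and the gene lists were chosen with earlier results of these data known. Genes were filtered with edgeR 4.0.16 (R 4.3.3; minimum count 10), scaled by TMM and tested over all 4 groups with the quasi-likelihood test, with Benjamini-Hochberg adjustment over 14992 genes. The named genes were the 9 members, NFKBIA, list members called against untreated cells with up to 2 others a list, subunits used in ratios, marker genes, and genes among the 5 most correlated with the members. Some genes that this rule names are not reported here. Ratios used counts with an offset of 0.5 and two-sided exact permutation tests. Alternatives included DESeq2 1.42.0, other scalings, the filter, lanes, a replicate block and leaving out each library. The fitting script was tested on simulated data. Promoter sequences came from RefSeq (GRCh38.p14) and overlaps from GENCODE 29 (GRCh38), not from hg19. No coordinates were converted.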

Additional observations from a re-analysis of the deposited data

Results flagged for a closer look

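In 36 groups of 5 libraries (9 genes in 4 groups), 5 held a library far from the others by Dixon's test, where chance flags about 1 in 20 groups. Of these, 3 were in untreated replicate 5, with TAP1 at 38.1 CPM and TAP2 at 79.8 CPM below the other untreated libraries and TAPBP at 287 CPM above them. The others were HLA-C at 406 CPM in knockdown replicate 5 and PSMB9 at 10.8 CPM in replicate 5 at 1.5 h post-IR, both above the rest of their group.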

How the results depend on the processing

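No gene called in a comparison changed direction under any alternative run. At 1.5 h against untreated cells, 6 of the 9 genes had opposite signs with lane as a factor and without untreated replicate 5, such as PSMB8 (0.49 and -0.25). With sequencing lane as a factor, 1 gene passed as higher and 1 as lower at 1.5 h (11.9% and 13.6% of all genes), 7 and 1 at 7 days (21.8% and 19.5%), and 6 and 1 in the knockdown (13.3% and 14.0%), each against untreated cells. The 6 did not include PSMB9, whose knockdown call ended (0.69, adjusted p = 0.0693). Within lane 3 the differences at 1.5 h were the same as with lane as a factor. Both rest on untreated replicate 5 alone, whose spread is assumed from other groups. With no threshold on the fold change, the counts became 1 lower at 1.5 h (10.2% of all genes), 6 higher and 2 lower at 7 days (32.9% and 31.2%) and 6 higher in the knockdown (19.5%) against untreated cells. They became 7 higher and 1 lower between 7 days and 1.5 h (32.0% and 28.9%), 4 higher and 2 lower between 7 days and knockdown (29.7% and 27.7%), and 6 higher between knockdown and 1.5 h (20.4%). At 7 days against untreated cells, 1 gene (PSMB9) was called lower with no filter, with only the groups compared and with DESeq2, and 0 to 1 when 1 library was left out. Leaving out 1 library gave 3 to 5 called higher at 7 days against untreated cells, 3 to 5 between 7 days and 1.5 h, and 1 to 3 between 7 days and knockdown. With no library left out, 16.7%, 16.8% and 15.8% of all genes were called higher in these comparisons, and 14.4% lower in the first. HLA-E lost its call in that comparison in 13 of 21 alternatives, 5 of them other scalings, no filter or DESeq2. The replicate numbers did not pair the libraries, since 2 of 30 pairs with the same number had a correlation of deviations over 0.1 (range -0.25 to 0.12). With a replicate block, 0 and 0 of the 9 were called higher and lower at 1.5 h, and no call among the 66 results changed. Leaving untreated replicate 5 out of the list comparisons, an alternative chosen after seeing the data, ended the calls of HLA-F, CANX and RUNX2. Depth limits PSMB9 most, with at least 203 counts a library.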
